A study of Rattus norvegicus with 12 samples.

Results

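Chemokines are small secreted or membrane-anchored proteins that guide migrating cells. Here 9 genes of this system were described in rat proximal aorta and semilunar valves: the ligands Cxcl12, Ccl2, Ccl7, Ccl11, Cxcl1, Cxcl2, Cxcl10 and Cx3cl1, and the atypical receptor Ackr3. Every probe set whose only annotated symbol was one of these genes was taken, which gave 11 of the 31042 probe sets of the array other than controls. Cxcl12 had 3 probe sets and each other gene had 1. RNA from Wistar rats was hybridised to 12 oligonucleotide arrays, in 4 groups of 3. The groups were semilunar valves (aortic and pulmonary) of adult males, semilunar valves of neonates, the proximal aorta of adult males and the proximal aorta of neonates. Neonates were sampled in their first 24 h of life. The labels name no treatment, and they give neither the sex of the neonates nor the age of the adults. The comparisons ask how these genes differ between adult and newborn life in each tissue, and between valve and aorta at each age.

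Chemokines bind G protein-coupled receptors on their target cells and are held on cell surfaces and matrix by glycosaminoglycans. Cxcl12 is made by stromal and vascular cells, signals through Cxcr4, and is taken up and cleared by Ackr3, which does not signal through G proteins. In mice, loss of Ackr3 malforms the semilunar valves. The other ligands are better known from inflammation: Ccl2 and Ccl7 draw monocytes, Ccl11 eosinophils, Cxcl1 and Cxcl2 neutrophils, and Cxcl10 activated T cells. Cx3cl1 is anchored in the endothelial membrane, where it holds monocytes, until proteases shed it.

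The bases before the annotated gene start are printed for 4 of the genes, since these genes are known to differ in how they are switched on. Of the 9 genes, 7 had such a window of 250 bases in RefSeq's GRCr8 table. Inflammatory ligands are classic targets of NF-kB, and GGG, any 3 bases and then TTCC, a common form of its site, was sought on both strands. It was found upstream of Ccl7, Cxcl1, Cxcl2 and Cxcl10, which is 4 of 7 windows, and in 4.53% of all 33469 windows. GAAA, any 2 bases and then GAAA, a form of the interferon-stimulated element, was also sought on both strands. It stood upstream of Cxcl10 alone among the 7 and in 3.41% of all windows. Cxcl12 had neither and held 3 copies of GGGCGG, the GC box, which 30.5% of all windows hold on either strand. Ccl7, Cxcl2 and Cx3cl1 held 1 copy of GGGCGG each. Ackr3 had none of the 3 motifs. Capitals mark GGGCGG on either strand for Cxcl12, and the NF-kB form on either strand for Cxcl1 and Cxcl10. The first capitals of Cxcl10 mark the interferon form. The second marked stretch of Cxcl1 and the last of Cxcl10 are each an overlap of 2 matches, 1 on each strand. The windows lie at chr4:152060531-152060780 (plus strand), chr9:98247104-98247353 (plus strand), chr14:17479322-17479571 (minus strand) and chr14:15988816-15989065 (plus strand). A match is a description of letters and not a binding site.
Cxcl12: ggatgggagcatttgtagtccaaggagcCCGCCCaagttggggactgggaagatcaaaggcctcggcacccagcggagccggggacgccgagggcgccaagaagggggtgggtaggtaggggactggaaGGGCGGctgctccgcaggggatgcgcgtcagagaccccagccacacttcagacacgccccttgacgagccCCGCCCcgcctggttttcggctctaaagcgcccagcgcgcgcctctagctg
Ackr3: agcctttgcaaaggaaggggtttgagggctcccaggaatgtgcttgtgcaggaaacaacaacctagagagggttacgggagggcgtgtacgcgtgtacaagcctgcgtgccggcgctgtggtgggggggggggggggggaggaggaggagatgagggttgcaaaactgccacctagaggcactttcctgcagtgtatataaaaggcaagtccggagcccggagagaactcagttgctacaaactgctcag
Cxcl1: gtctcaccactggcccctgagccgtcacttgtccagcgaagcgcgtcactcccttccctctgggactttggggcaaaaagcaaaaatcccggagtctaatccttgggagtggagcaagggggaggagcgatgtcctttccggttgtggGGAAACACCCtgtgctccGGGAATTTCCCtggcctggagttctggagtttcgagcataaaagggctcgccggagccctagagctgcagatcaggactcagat
Cxcl10: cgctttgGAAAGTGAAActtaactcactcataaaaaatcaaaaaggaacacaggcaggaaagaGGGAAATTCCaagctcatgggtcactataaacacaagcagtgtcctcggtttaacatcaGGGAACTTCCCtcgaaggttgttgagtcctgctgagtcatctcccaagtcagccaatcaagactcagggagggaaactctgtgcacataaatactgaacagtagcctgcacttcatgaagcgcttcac

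Several labels and arrays stood apart. In 6 samples the tissue entry names another group than the title: arrays titled adult aorta carry neonatal valve, and arrays titled neonatal valve carry adult aorta. Groups follow the titles. Igf2, a fetal growth factor gene, had signals of 184 to 376 in adult valve, 6189 to 8898 in neonatal valve, 339 to 879 in adult aorta and 17222 to 20768 in neonatal aorta. Xist, the RNA of the inactive X chromosome, read 10998 to 18362 on the valve arrays, although the adult ones are labelled male, and 5.08 to 297 on the aorta arrays. Eif2s3y, a gene of the Y chromosome, read 1.39 to 8.91 in adult valve, 3.32 to 134 in neonatal valve, 1379 to 1648 in adult aorta and 1924 to 2557 in neonatal aorta. Tissue and sex therefore cannot be told apart in the comparisons of valve with aorta. Coverage of transcripts, read as beta-actin signal at the 3′ end over that at the 5′ end, was uneven: the ratio was 10.6 to 14.0 in adult valve, 7.24 to 8.84 in neonatal valve, 1.44 to 2.59 in adult aorta and 1.40 to 1.55 in neonatal aorta, so tissue and transcript coverage cannot be told apart. Markers of skeletal muscle and squamous epithelium were high on adult aorta 1, of squamous epithelium on neonatal aorta 2, and of thymocytes on neonatal valve 3. Thymocyte markers were raised less on neonatal valve 1, with a summed signal of 4058 against 47398 on neonatal valve 3. Red cell markers had a median log2 signal of 12.9 on adult valve 3, against 8.20 and 5.94 on adult valve 1 and 2. Heart muscle markers differed between the groups. The summed signal of 9 was 4908 to 90760 in adult valve and 92395 to 104889 in neonatal valve. In the aorta it was 1025 to 29989 in adults and 32782 to 56745 in neonates. The part of these markers in the differences of other genes was not tested. Neonatal aorta 2 and 3 lacked the control RNAs added to the other arrays, and the highest of these absent RNAs read 54.6. A signal up to that value cannot be told from absence. In whole tissue, fewer cells of a type and less RNA per cell cannot be told apart. The labels do not state whether replicate arrays are separate animals, and p-values measure only the spread between these samples, which may be technical.

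Set against the median of all signals, 172, the genes were unequally detected. Ackr3 and the probe sets 1369633_at and 1388583_at of Cxcl12 exceeded it on all 12 arrays, Ccl2 and Cx3cl1 on 11 arrays each, the remaining probe set of Cxcl12 on 6 and Ccl11 on 5. Cxcl1 exceeded it on 2 arrays, Ccl7 and Cxcl10 on 1 each, and Cxcl2 on none. A probe set was tested only if it exceeded 172 on at least 3 arrays. Of the 11 probe sets 7 passed, for 5 of the 9 genes, and those of Ccl7, Cxcl1, Cxcl2 and Cxcl10 did not. Ccl11 and probe set 1387655_at of Cxcl12 passed only through aorta arrays, with no valve array above 172. Their tests of valve against aorta rest on probe sets admitted by the tissue where they are high, and are no independent support. Tests are from limma, fitted to all 12 arrays and adjusted by Benjamini and Hochberg over 18552 probe sets. A difference was called at an adjusted p under 0.05, is on the log2 scale and is given with its standard error (SE) or 95% confidence interval.

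**Figure D1:**
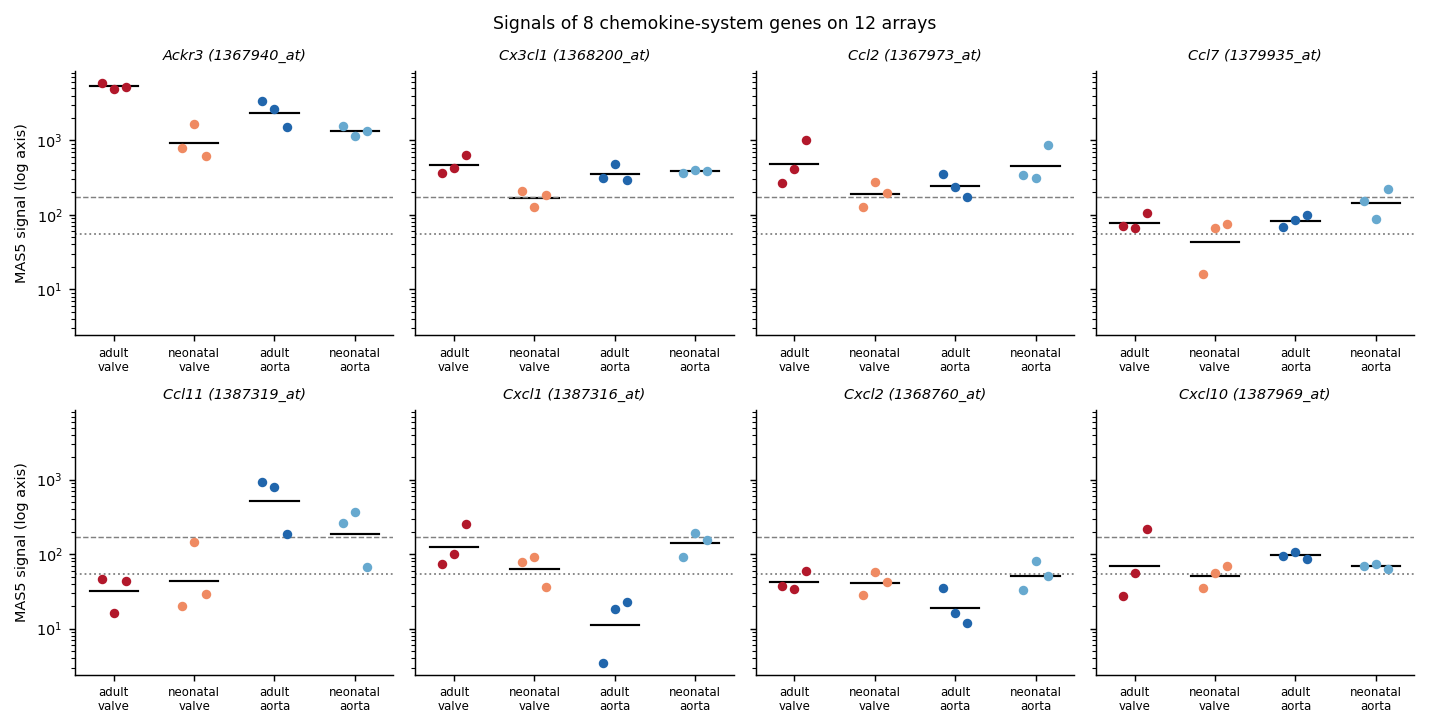
Signal on each of the 12 arrays (log axis) for the 8 genes with 1 probe set, in the order adult valve, neonatal valve, adult aorta and neonatal aorta. Points are arrays 1, 2 and 3, bars are geometric means (n = 3), the dashed line is the median of all signals (172) and the dotted line the highest signal of an absent control RNA (54.6). Ackr3 was highest on the 3 adult valve arrays, at 4819 to 5949, and Ccl11 on 2 of the 3 adult aorta arrays, at 928 and 798.

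Between adult and neonatal valve, Ackr3 and Cx3cl1 rose and no member fell, so 2 of 7 tested probe sets were called, where 9.21% of all probe sets were. The beta-actin ratio did not overlap between these groups either (10.6 to 14.0 in adult valve and 7.24 to 8.84 in neonatal valve), nor did that of GAPDH (2.78 to 5.13 in adult valve and 1.97 to 2.60 in neonatal valve), and their part in the differences by age was not tested. Between adult and neonatal aorta, 1 probe set of Cxcl12 fell, which is 1 of 7 against 7.31% of all. Between adult valve and adult aorta, Ackr3 was higher and Ccl11 and 1 probe set of Cxcl12 were lower, 3 of 7 against 37.1% of all. Between neonatal valve and neonatal aorta, Cx3cl1 and that probe set of Cxcl12 were lower, 2 of 7 against 32.6% of all. Ccl11 and that probe set of Cxcl12 had passed the filter only through the aorta, where they are high. Groups were fully apart, with no overlap of arrays, for 2 of 7 in the valve by age (33.4% of all), 3 of 7 in the aorta by age (30.9%), 4 of 7 between adult valve and adult aorta (44.3%) and 4 of 7 between neonatal valve and neonatal aorta (59.7%). Set against the differences by age of the aorta, those of the valve gave limma 0 calls of 7, against 0.0593% of all. At an unadjusted p under 0.05 that contrast held 4 of 7 (Ackr3, Ccl2, Cx3cl1 and 1388583_at of Cxcl12), against 11.7% of all. The median difference of the 7 was 0.04 in valve by age, -0.90 in aorta by age, 0.38 between adult tissues and -1.22 between neonatal tissues. Over all probe sets tested these medians were -0.04, -0.08, -0.05 and -0.09. These comparisons share arrays, so their counts are not independent.

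**Figure D2:**
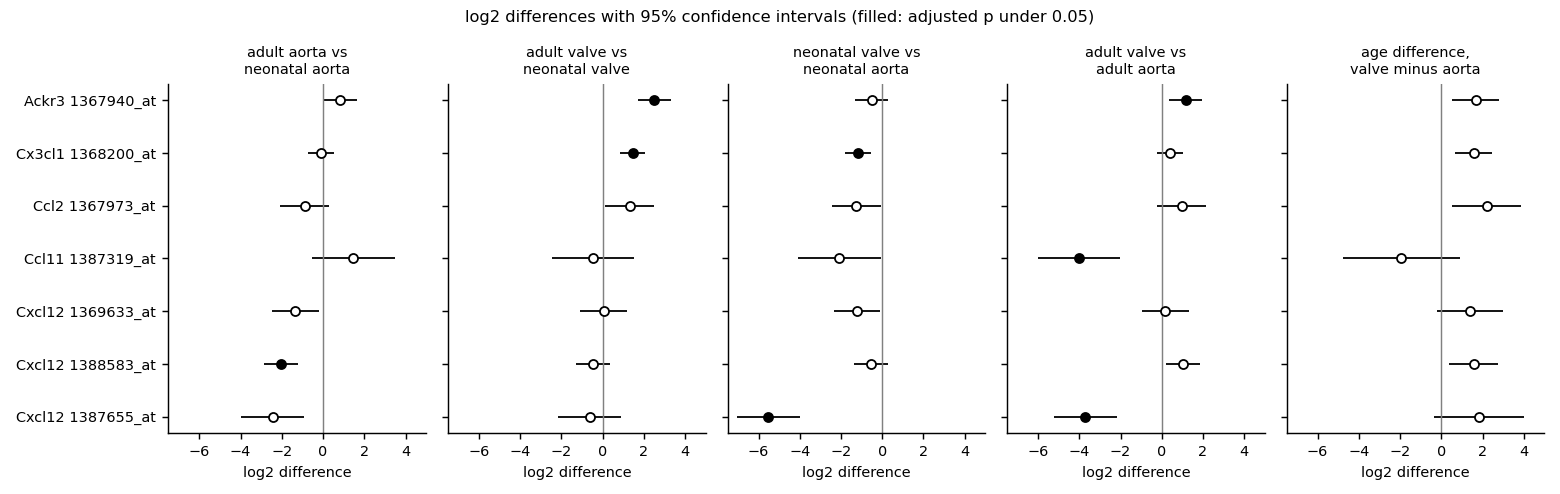
Log2 differences (points) and 95% confidence intervals (lines) of the 7 tested probe sets in the 5 comparisons, each first group minus the second named. Filled points passed an adjusted p of 0.05. Ackr3 and Cx3cl1 lie at 2.51 and 1.45 in adult against neonatal valve, and probe set 1387655_at of Cxcl12 lies at -5.52 and -3.70 in the comparisons of valve with aorta.

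Ackr3, the scavenger receptor of Cxcl12, rose with age in the valve. Its probe set 1367940_at had signals of 5949, 4819 and 5150 on the adult valve arrays and 790, 1653 and 617 on the neonatal valve arrays. On the adult aorta arrays it had 3356, 2614 and 1495, and on the neonatal aorta arrays 1553, 1148 and 1316. Every adult valve array lay above every other array, while neonatal valve overlapped with neonatal aorta, and adult aorta overlapped with neonatal aorta through its array 3. Adult valve was higher than neonatal valve by 2.51 (SE 0.37, adjusted p = 0.0028), a 5.68-fold difference. With each of the 6 valve arrays left out in turn the difference was 2.21 to 2.92 and remained called. Adult valve was also higher than adult aorta, by 1.16 (SE 0.37, adjusted p = 0.028). That call was lost when any 1 of adult valve 1, 2 or 3 or of adult aorta 2 or 3 was left out (0.84 to 1.24, adjusted p up to 0.093), and when only these groups were fitted (adjusted p = 0.053). The age difference in aorta was 0.83 (interval 0.02 to 1.64, adjusted p = 0.20) and that between neonatal valve and neonatal aorta -0.51 (-1.32 to 0.29, adjusted p = 0.31). The age difference in valve exceeded that in aorta by 1.68 (SE 0.52, interval 0.54 to 2.82, unadjusted p = 0.0079 in limma, adjusted p = 0.25).

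Cxcl12, the ligand that Ackr3 clears, gave different pictures through its 3 probe sets. By 2 of them the gene was read in both tissues and at both ages, and by the remaining one it was near absence in the valve. Probe set 1369633_at had signals of 4177, 2535 and 1076 in adult valve, 3307, 1355 and 2318 in neonatal valve, 2636, 2896 and 1048 in adult aorta, and 4744, 5932 and 4670 in neonatal aorta. Probe set 1388583_at had 2093, 2018 and 1488 in adult valve, 3190, 1405 and 3671 in neonatal valve, 795, 1455 and 635 in adult aorta, and 3800, 3993 and 3273 in neonatal aorta. For both, the 3 neonatal aorta arrays lay above the 3 adult aorta arrays, and adult and neonatal valve overlapped. Probe set 1387655_at had 59.8, 66.5 and 10.1 in adult valve, 60.4, 49.4 and 48.7 in neonatal valve, 871, 557 and 182 in adult aorta, and 2045, 3050 and 2265 in neonatal aorta. Here all 6 valve arrays lay below all 6 aorta arrays, and 3 of the 6 were at or under the level of an absent RNA. This probe set passed the filter through aorta arrays alone.

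**Figure D3:**
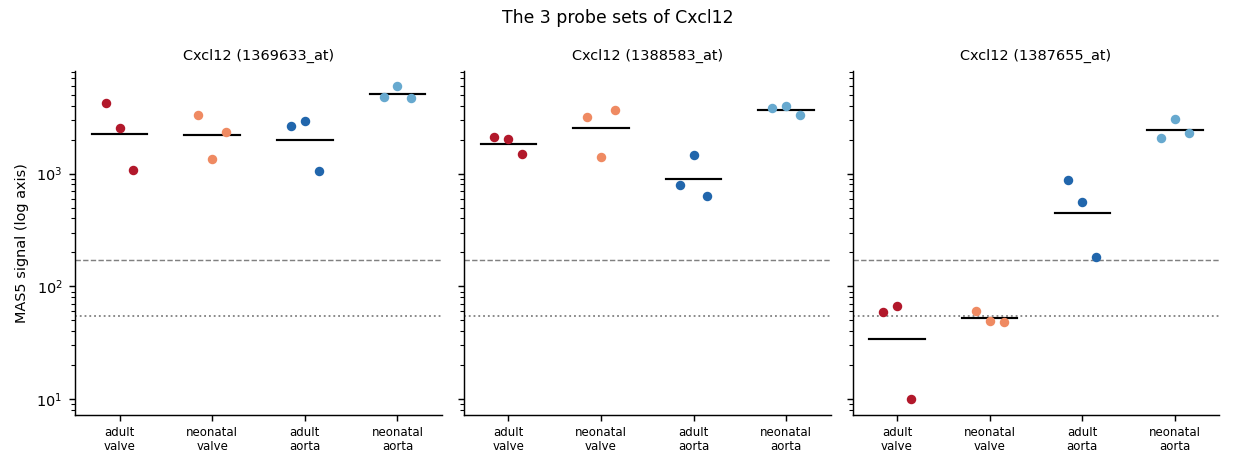
Signal on each of the 12 arrays (log axis) for the 3 probe sets of Cxcl12, in the order adult valve, neonatal valve, adult aorta and neonatal aorta. Points are arrays, bars geometric means (n = 3), and the dashed and dotted lines are the median of all signals (172) and the highest signal of an absent control RNA (54.6). Neonatal aorta is the highest group in all 3 panels by geometric mean, and the valve arrays fall to 10.1 to 66.5 only for 1387655_at.

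In adult against neonatal aorta all 3 probe sets of Cxcl12 had differences below 0, of which 1 was called. Adult aorta fell below neonatal aorta by 2.03 for 1388583_at (log2 difference -2.03, SE 0.38, adjusted p = 0.010), a 4.07-fold difference. The difference was -1.35 for 1369633_at (interval -2.48 to -0.21, adjusted p = 0.14) and -2.44 for 1387655_at (-3.97 to -0.91, adjusted p = 0.059). All 3 had groups that did not overlap, and they were the only tested members of which this was so in the aorta, where 30.9% of all probe sets did not overlap. The call of 1388583_at held with each of the 6 aorta arrays left out in turn, at -2.37 to -1.77. It was lost without adult aorta 1, neonatal aorta 2 and neonatal valve 3 together (-1.88, adjusted p = 0.057). With the absence of control RNAs as a block, neonatal aorta rests on its array 1 alone, and the difference was -2.07. Without adult aorta 1 alone 1387655_at was called as well (-2.92, adjusted p = 0.026). In the valve the age differences were 0.04 for 1369633_at, -0.46 for 1388583_at and -0.62 for 1387655_at, none of them called, with intervals that reached at most 2.15 from 0 in size.

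Between valve and aorta the 3 probe sets did not go together. Neonatal valve was lower than neonatal aorta by 5.52 for 1387655_at (log2 difference -5.52, SE 0.70, adjusted p = 0.0003), with 2 of the 3 valve arrays at or under the absent level. With those arrays raised to that level, neonatal aorta was 42.8-fold higher. The same difference was -1.22 for 1369633_at (interval -2.36 to -0.09, adjusted p = 0.093), with no overlap between the arrays and called when only these groups were fitted (adjusted p = 0.011), and -0.53 for 1388583_at (-1.36 to 0.30, adjusted p = 0.31). Adult valve was lower than adult aorta for 1387655_at (-3.70, SE 0.70, adjusted p = 0.0023) and had 1 of its 3 arrays at the absent level. With that array raised to the level, adult aorta was 7.41-fold higher. Toward the other side, 1388583_at read 1.03 higher in adult valve than in adult aorta (interval 0.20 to 1.86, adjusted p = 0.051), with no overlap between the arrays, and 1369633_at differed by 0.17 (-0.96 to 1.30, adjusted p = 0.82). The value of 1388583_at was called without adult aorta 2 (1.38, adjusted p = 0.020) and with each array centred on its median (1.42, adjusted p = 0.017). Such centring adds 0.39 to every difference between adult valve and adult aorta and 0.33 to every one between neonatal valve and neonatal aorta.

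The spread among the probe sets of Cxcl12 was set beside that of other genes. The highest minus the lowest of its 3 log2 differences was 4.99 in neonatal valve against neonatal aorta and 4.74 in adult valve against adult aorta. Over the 524 genes with exactly 3 tested probe sets the median spread was 1.86 and 1.98 in these comparisons, and 5 and 17 genes reached the value of Cxcl12 or more, Cxcl12 included. In adult against neonatal valve the spread of Cxcl12 was 0.66, where the median was 0.59, and in adult against neonatal aorta it was 1.09, where the median was 0.54. The part of the uneven beta-actin ratio in these spreads was not tested. Where on the transcript each probe set lies was not analysed here.

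**Figure D4:**
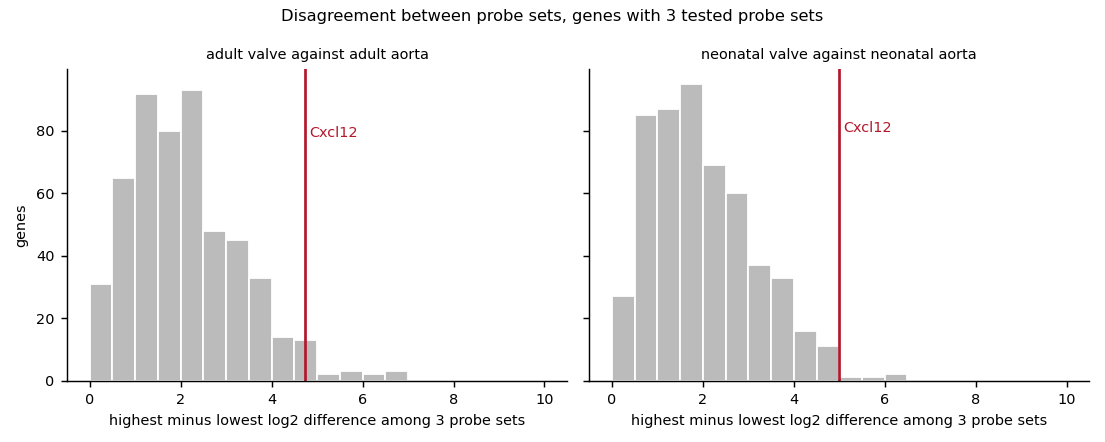
Number of genes (y axis) by the highest minus the lowest log2 difference among their probe sets (x axis), for the 524 genes with exactly 3 tested probe sets, in adult valve against adult aorta (left) and neonatal valve against neonatal aorta (right). The red line marks Cxcl12, at 4.74 and 4.99, in the upper tail of both histograms, whose medians are 1.98 and 1.86.

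Cxcr4, the signalling receptor of Cxcl12, was higher in valve than in aorta at both ages by 2 of its 3 probe sets. Probe set 1389244_x_at had signals of 379, 803 and 1332 in adult valve, 1292, 528 and 2039 in neonatal valve, 143, 79.0 and 167 in adult aorta, and 345, 285 and 323 in neonatal aorta. All valve arrays lay above all aorta arrays for this probe set. The difference was 2.58 between adult valve and adult aorta (SE 0.53, adjusted p = 0.0036) and 1.82 between neonatal valve and neonatal aorta (SE 0.53, adjusted p = 0.023). Probe set 1373661_a_at gave 1.84 (adjusted p = 0.012) and 1.74 (adjusted p = 0.017), with no overlap at either age. Between valve and aorta 37.1% of all probe sets were called in adults and 32.6% in neonates, and 44.3% and 59.7% did not overlap. Probe set 1370097_a_at gave 0.38 (interval -0.74 to 1.51) and 0.11 (-1.01 to 1.24), so the probe sets of this gene differed too. No age difference of Cxcr4 was called by any of the 3. In the aorta all 3 had adult arrays below the neonatal ones without overlap, where 30.9% of all probe sets did not overlap. The differences were -1.36 (adjusted p = 0.15) for 1389244_x_at, -0.86 (adjusted p = 0.31) for 1373661_a_at and -1.52 (adjusted p = 0.098) for 1370097_a_at. The last of these was called after quantile normalisation (-1.71, adjusted p = 0.047) and when only the aorta groups were fitted (adjusted p = 0.037). Thymocytes carry Cxcr4, and 1389244_x_at was highest on neonatal valve 3, the array with the highest thymocyte markers. The summed signal of 10 such markers was 706 to 1739.9 in adult valve, 698 to 47398 in neonatal valve, 1121 to 1527 in adult aorta and 788 to 924 in neonatal aorta. On neonatal valve 1, 2 and 3 the sums were 4058, 698 and 47398, where 1389244_x_at read 1292, 528 and 2039. The part of these markers in the values of Cxcr4 was not tested. Without neonatal valve 3 the neonatal difference of 1389244_x_at was 1.38 (adjusted p = 0.091) and that of 1373661_a_at 1.28 (adjusted p = 0.066). The neonatal calls of these probe sets were lost on leaving out several other single arrays too, with adjusted p up to 0.071. The block for absent control RNAs leaves neonatal aorta to its array 1. With it the neonatal differences were 1.69 for 1389244_x_at and 1.68 for 1373661_a_at. Without adult aorta 1, neonatal aorta 2 and neonatal valve 3 together the values were 1.31 (adjusted p = 0.17) and 1.16 (adjusted p = 0.13). The adult calls were kept with each array left out in turn.

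**Figure D5:**
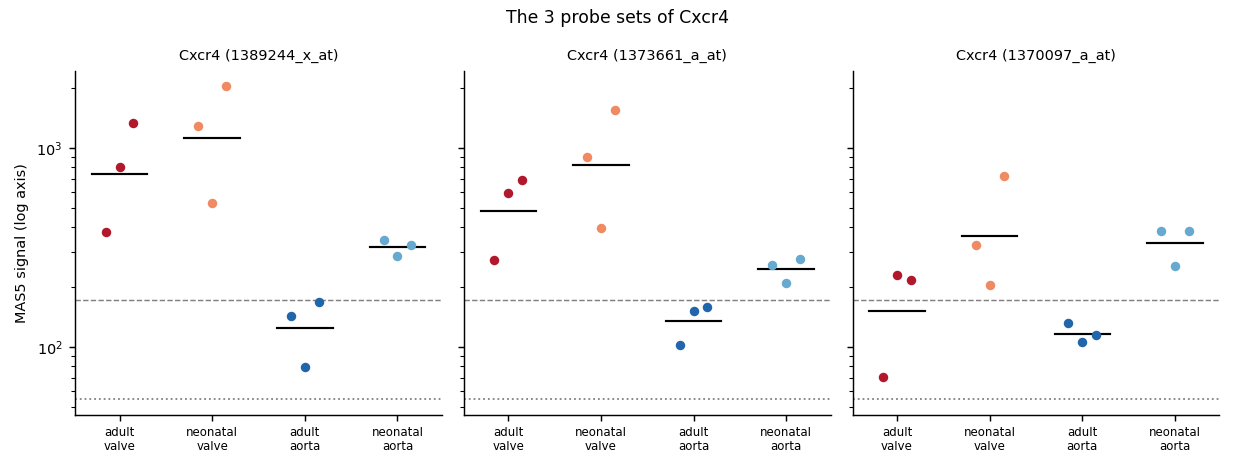
Signal on each of the 12 arrays (log axis) for the 3 probe sets of Cxcr4, in the order adult valve, neonatal valve, adult aorta and neonatal aorta, with points, bars and lines as in the plot of Cxcl12. In the left panel every valve array lies above every aorta array, in the middle panel this holds within each age, and in the right panel (1370097_a_at) the tissues overlap, with 70.4 to 229 in adult valve and 105 to 131 in adult aorta.

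Cx3cl1, the membrane-anchored ligand of endothelium, was lowest in the neonatal valve. Its probe set 1368200_at had signals of 368, 429 and 630 in adult valve, 207, 127 and 185 in neonatal valve, 314, 482 and 297 in adult aorta, and 365, 404 and 387 in neonatal aorta. The 3 neonatal valve arrays lay below all others, and the other groups overlapped. Adult valve was higher than neonatal valve by 1.45 (SE 0.28, adjusted p = 0.012), a 2.74-fold difference, at 1.23 to 1.62 with each valve array left out in turn and called each time. Neonatal valve was lower than neonatal aorta by 1.19 (log2 difference -1.19, SE 0.28, adjusted p = 0.0089). That call was lost without adult aorta 1, neonatal aorta 2 and neonatal valve 3 together (-1.21, adjusted p = 0.053). With the absence of control RNAs as a block, which leaves neonatal aorta to its array 1, the difference was -1.11. Adult aorta and neonatal aorta differed by -0.12 (interval -0.74 to 0.51), and adult valve and adult aorta by 0.38 (-0.24 to 1.01). The age difference in valve exceeded that in aorta by 1.57 (SE 0.40, unadjusted p = 0.0024 in limma, adjusted p = 0.18). Of 10 endothelial markers tested, 1 rose and 1 fell between adult and neonatal valve, where 9.21% of all probe sets were called, and their summed signal was 13588 to 40149 in adult valve and 10078 to 15137 in neonatal valve. None of the 10 was at the absent level on any array, and their part in the value of Cx3cl1 was not tested. The receptor Cx3cr1, found on monocytes, read 47.4 to 93.7 in adult valve, 10.1 to 67.2 in neonatal valve, 79.4 to 132 in adult aorta and 82.3 to 201 in neonatal aorta, and was not tested.

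Ccl11, which draws eosinophils through Ccr3, was read in the aorta and near absence in the valve. Its probe set 1387319_at had signals of 46.3, 16.0 and 44.1 in adult valve, 20.1, 147 and 29.2 in neonatal valve, 928, 798 and 188 in adult aorta, and 263, 365 and 67.5 in neonatal aorta. All 3 adult valve arrays and 2 of the 3 neonatal valve arrays were at or under the absent level, and no aorta array was. The probe set passed the filter through aorta arrays alone, so its tests against valve are no independent support. Adult valve was lower than adult aorta (log2 difference -4.02, SE 0.91, adjusted p = 0.0060), and adult aorta was at least 9.48-fold higher with the valve arrays set at the absent level. The call held with each of the 6 arrays left out in turn, at -4.75 to -3.52. Between neonatal valve and neonatal aorta the difference was -2.08 (interval -4.07 to -0.08, adjusted p = 0.10), with overlap through neonatal valve 2 alone, and without that array it was -2.94 (adjusted p = 0.032). Adult and neonatal aorta differed by 1.47 (interval -0.52 to 3.47, adjusted p = 0.37) and overlapped. Between the tissues, adipocyte markers moved the same way. All 7 tested were lower in adult valve than in adult aorta, and 6 of 7 lower in neonatal valve than in neonatal aorta. Of all probe sets, 37.1% and 32.6% were called in either direction. Ucp1, at 1.55 to 63.1 in valve and 295 to 37326 in aorta, passed the filter through aorta arrays alone. Cfd, at 231 to 661 in adult valve, needed no aorta array to pass. The counts therefore rest in part on probe sets admitted by the tissue where they are high, and are no independent support. The summed signal of the 8 adipocyte markers measured was 963 to 1744 in adult valve and 906 to 1223 in neonatal valve. In the aorta it was 6309 to 106603 in adults and 23516 to 50267 in neonates. Within adult aorta, arrays 1, 2 and 3 had sums of 6309, 106603 and 36955, where Ccl11 read 928, 798 and 188. Adult aorta 1, with the highest Ccl11, is the array with high skeletal muscle and squamous markers. The part of these markers in the value of Ccl11 was not tested. Ccr3 read 12.2 to 124 over the 12 arrays and was not tested.

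Ccl2, which draws monocytes through Ccr2, passed in no comparison. Its probe set 1367973_at had signals of 263, 412 and 997 in adult valve, 128, 278 and 198 in neonatal valve, 354, 240 and 172 in adult aorta, and 342, 316 and 879 in neonatal aorta. The highest array of adult valve and of neonatal aorta stood well above the others of its group, and only neonatal valve and neonatal aorta did not overlap. Adult valve and neonatal valve differed by 1.31 (interval 0.13 to 2.49, adjusted p = 0.15) and adult and neonatal aorta by -0.90 (-2.08 to 0.28, adjusted p = 0.35). Neonatal valve and neonatal aorta differed by -1.25 (-2.43 to -0.07, adjusted p = 0.098), a value called when only these groups were fitted (adjusted p = 0.046). Adult valve and adult aorta differed by 0.96 (-0.22 to 2.14, adjusted p = 0.18), called with each array centred on its median (1.35, adjusted p = 0.0499). With each array left out in turn these values ranged over 0.78 to 1.74 in valve by age, -1.17 to -0.43 in aorta by age, -1.52 to -0.78 between neonatal tissues and 0.43 to 1.39 between adult tissues, and none was called. The age difference in valve exceeded that in aorta by 2.21 (SE 0.76, unadjusted p = 0.014 in limma, adjusted p = 0.30). Of 14 macrophage markers tested, 4 rose between adult and neonatal valve and 8 were lower in neonatal valve than in neonatal aorta, and none went the other way, where 9.21% and 32.6% of all probe sets were called. Their summed signal was 15211 to 27133 in adult valve, 7627 to 15392 in neonatal valve, 11162 to 17380 in adult aorta and 14120 to 19654 in neonatal aorta, and their part in the values of Ccl2 was not tested. Ccr2 read 7.83 to 129 over the 12 arrays.

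Ccl7, the neighbour of Ccl2 and Ccl11 on chromosome 10 in RefSeq's gene order and likewise a ligand for monocytes, was too dim to be tested. Its probe set 1379935_at read 69.8, 65.6 and 107 in adult valve, 15.9, 67.2 and 75.5 in neonatal valve, 68.1, 86.0 and 98.4 in adult aorta, and 153, 89.1 and 222 in neonatal aorta. The neonatal aorta arrays lay above those of neonatal valve and overlapped with adult aorta. In a fit of all 31042 probe sets with no filter, neonatal valve and neonatal aorta differed by -1.74 (interval -3.03 to -0.46, adjusted p = 0.056).

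Cxcl1 and Cxcl2, the neutrophil ligands that lie side by side on chromosome 14 in RefSeq's gene order, were dim as well. Probe set 1387316_at of Cxcl1 read 74.1, 101 and 256 in adult valve, 79.6, 91.6 and 36.0 in neonatal valve, 3.51, 18.1 and 22.5 in adult aorta, and 92.8, 191 and 153 in neonatal aorta. All 3 adult aorta arrays were under the absent level and below all other arrays. With no filter, adult aorta was lower than neonatal aorta (-3.63, SE 0.74, adjusted p = 0.021), 1 of the 4 dim probe sets against 3.99% of all. Adult valve was higher than adult aorta (3.46, SE 0.74, adjusted p = 0.0060), again 1 of 4, against 25.9% of all. In the other comparisons limma called 0 of these 4 without the filter, against 4.56% of all in valve by age, 20.7% between neonatal tissues and 0.0354% for the contrast of the age differences. As bounds, neonatal aorta was at least 2.55-fold and adult valve at least 2.27-fold higher than adult aorta set at the absent level. Probe set 1368760_at of Cxcl2 read 37.1, 34.0 and 59.3 in adult valve, 28.5, 57.6 and 42.0 in neonatal valve, 35.0, 16.0 and 11.7 in adult aorta, and 32.9, 80.9 and 51.0 in neonatal aorta. It was at or under the absent level on 9 of 12 arrays, so no fold is given. Of their receptor Cxcr2, signals were 3.53 to 203 over the 12 arrays, the highest on adult aorta 1. Of 8 measured neutrophil markers, 4 to 6 were at the absent level on each adult aorta array and 2 to 4 on each neonatal aorta array. On each adult valve array 5 to 7 were, and on each neonatal valve array 6. Their part in the values of Cxcl1 was not tested.

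Cxcl10, which interferon induces and which draws T cells through Cxcr3, was the remaining dim ligand. Its probe set 1387969_at read 27.2, 55.5 and 215 in adult valve, 35.4, 55.7 and 69.3 in neonatal valve, 95.6, 108 and 86.7 in adult aorta, and 69.2, 74.6 and 62.6 in neonatal aorta. The adult aorta arrays lay above those of neonatal aorta by a small margin, and adult valve spanned all other groups through its array 3. With no filter the differences were 0.49 between adult and neonatal aorta (interval -0.88 to 1.86) and 0.42 between adult and neonatal valve (-0.96 to 1.79), and no comparison was called. Cxcr3 read 12.1 to 106 over the 12 arrays and was not tested.

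The rest of the system was summarised over gene lists, with a gene represented by its brightest probe set. Among other chemokine ligands, 12 of 26 listed genes were tested. Between adult and neonatal valve 4 rose and 1 fell, where 9.21% of all probe sets were called, with a list median of 1.19 against -0.04 over all. The rises were Ccl6 (2.67, adjusted p = 0.018), Ccl19, Cxcl16 (0.92) and Ccl5 (2.04), and Ccl20 fell. Ccl19 was at least 4.66-fold higher, with 1 neonatal valve array at the absent level, and Ccl20 at least 2.76-fold lower, with 2 of the 3 adult valve arrays at that level. Ccl6 had 1278, 1563 and 905 in adult valve, against 210, 339 and 99.8 in neonatal valve, and the groups did not overlap. Between neonatal valve and neonatal aorta 4 were lower, namely Cxcl9, Pf4, Ccl6 and Cxcl16, where 32.6% of all were called, and between adult valve and adult aorta Ccl20 and Cxcl9 were, where 37.1% were. Cxcl9, the neighbour of Cxcl10 and like it a ligand of Cxcr3, was at least 4.76-fold lower in neonatal valve (adjusted p = 0.0045), with 1 valve array at the absent level, and at least 2.88-fold lower in adult valve (adjusted p = 0.014), with 2 there. By its other probe set all 6 valve arrays were at the absent level, and neonatal valve was at least 5.70-fold lower (adjusted p = 0.0007). That probe set passed the filter through aorta arrays alone, so its tests against valve are no independent support. Between adult and neonatal aorta limma called 0 of the 12, where 7.31% of all were called. At an unadjusted p under 0.05 there were 4 of the 12, and the share of all at that threshold is not given here. Without adult aorta 1, neonatal aorta 2 and neonatal valve 3, 4 were counted as higher and none as lower in valve by age, and 1 was lower in each comparison of valve with aorta.

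Among chemokine receptors 5 of 21 listed genes were tested, of which 1 was called in valve by age, against 9.21% of all. Ackr1, the decoy receptor of venular endothelium and red cells, rose between adult and neonatal valve by 2.22 (SE 0.47, adjusted p = 0.016), with signals of 478, 492 and 813 in adult valve against 70.5, 224 and 120 in neonatal valve. Like Ackr3, it was higher on every adult valve array than on any neonatal valve array. Its highest signal was on adult valve 3, the array with high red cell markers. The summed signal of endothelial markers was also higher on adult valve 3, at 40149, than on adult valve 1 and 2, at 13588 and 21487. The part of either set of markers in the value of Ackr1 was not tested. Ccr1, a receptor of monocytes, was lower in neonatal valve than in neonatal aorta (-1.74, adjusted p = 0.042). In that comparison 1 of the 5 receptors was lower and 1 higher, where 32.6% of all probe sets were called. Without adult aorta 1, neonatal aorta 2 and neonatal valve 3, limma called 0 of the 5 there. Of 10 tested genes that hold chemokines on glycosaminoglycans or cut them, limma called 0 by age in either tissue. Of all probe sets, 9.21% were called in valve by age and 7.31% in aorta by age. At an unadjusted p under 0.05 the counts were 1 in valve and 0 in aorta, and the share of all at that threshold is not given here. Sdc4, Hspg2 and Adam10 were lower in valve than in aorta at both ages, and Sdc3, by its brightest probe set, in neonates. That is 3 of 10 in adults against 37.1% of all probe sets called, and 4 of 10 in neonates against 32.6%. The heparan sulfate carrier Sdc4 differed by -1.69 in adults (adjusted p = 0.0028) and -1.76 in neonates (adjusted p = 0.0027). Adam10, which sheds Cx3cl1, differed by -1.24 (adjusted p = 0.019) and -1.81 (adjusted p = 0.0034), while Adam17, the inducible sheddase, differed by 0.09 and -0.06 (adjusted p = 0.80 and 0.89). The list median was -1.04 in adults and -0.83 in neonates, against -0.05 and -0.09 over all.

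Genes of NF-kB signalling and cytokines were counted because several members are known targets of this pathway. Of 20 tested, 8 rose and none fell between adult and neonatal valve, where 9.21% of all probe sets were called, with a list median of 1.36. Macrophage markers moved with them in the same comparison, with 4 of 14 higher and none lower and the sums given beside Ccl2, and their part in the values of this list and of the interferon list was not tested. Nfkbia, the inhibitor that NF-kB itself induces, rose by 1.49 (SE 0.21, adjusted p = 0.0021), at 997, 1217 and 1042 in adult valve against 323, 397 and 447 in neonatal valve. Cebpd (1.70), Tlr4 (1.76) and Rela (1.01) rose as well. Between neonatal valve and neonatal aorta 5 were lower and none higher, where 32.6% of all were called and 8 of the 14 macrophage markers were lower. Among the 5 was Nfkbia (-1.26, adjusted p = 0.0012). Between adult valve and adult aorta 2 were higher and 1 lower, where 37.1% of all were called. Between adult and neonatal aorta limma called 0 of the 20, where 7.31% of all were called. At an unadjusted p under 0.05 there was 1 of the 20, and the share of all at that threshold is not given here. Leaving out the 3 arrays named above gave 8 rises in valve, 4 lower in neonatal valve than in neonatal aorta, 2 higher and 2 lower in adult valve than in adult aorta, and 1 rise in aorta.

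Interferon response genes, the class to which Cxcl10 belongs, showed the same direction in the valve. Of 19 tested, 9 rose and none fell between adult and neonatal valve, where 9.21% of all probe sets were called, with a list median of 1.44. Ifi44 had 850, 1113 and 1437 in adult valve against 270, 189 and 255 in neonatal valve, a difference of 2.24 (SE 0.24, adjusted p = 0.0008). Irf9 (1.13), Isg15 and Oas1a rose as well, with Isg15 at least 8.72-fold and Oas1a at least 4.22-fold higher, since 1 and 2 of the 3 neonatal valve arrays were at the absent level. Between adult and neonatal aorta Isg15 (adjusted p = 0.013) and Mx1 (adjusted p = 0.046) rose, which is 2 of 19 against 7.31% of all. Isg15 was at least 4.90-fold and Mx1 at least 3.54-fold higher, with 2 and 1 of the 3 neonatal aorta arrays at the absent level. Between adult valve and adult aorta 5 of 19 were higher and none lower, against 37.1% of all called, with Ifi44 at 1.81 (adjusted p = 0.0004). Between neonatal valve and neonatal aorta Stat2 alone was called, lower (-0.64, adjusted p = 0.032), against 32.6% of all. Its other probe set read 0.27 in that comparison (adjusted p = 0.52), so its probe sets differed in direction. Without the 3 arrays the counts were 9 rises in valve, 1 in aorta, 3 higher in adult valve than in adult aorta, and 2 lower in neonatal valve than in neonatal aorta. For a difference between the age differences of valve and aorta limma called 0 genes of the NF-kB and 0 of the interferon list, where 0.0593% of all were called. At an unadjusted p under 0.05 the counts were 6 of 20 and 6 of 19, against 11.7% of all.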

How the data were processed

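The samples were 12 one-colour Affymetrix arrays of rat valve and aorta, in 4 groups of 3 by sample title. The deposited values are linear signal intensities, made by the authors with Expression Console and MAS5 per the submitters' processing notes; their versions were not given in the sources used. MAS5 scales each array and gives low values to dim probe sets, so low signals are imprecise, and precision is limited by having 3 arrays per group. Of 31099 probe sets 57 were controls, and the other 31042 comprised 20826 with 1 annotated symbol, 436 with several and 9780 with none. By gene ID 20758 of the first class matched the reference table.

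Signals below 1 were set at 1 and converted to log2, with no further normalization. Probe sets above the median signal of 172 on at least 3 of 12 arrays (18552) were fitted in R 4.3.3 with limma 3.58.1, with 1 mean per group, eBayes with an intensity trend and Benjamini-Hochberg adjustment. The fit was tested on simulated data. The members and lists were chosen with earlier results of these data known. Other genes were named by a rule: up to 4 called genes per list and comparison by adjusted p, the receptors of the members, and the 3 nearest profiles of Cxcl12, Ackr3 and Ccl11. A gene of a list was represented by the probe set with the highest mean.

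Replicate numbers did not pair the samples: deviations from group means of same-numbered arrays correlated at -0.31 to 0.24, over 0.1 in 3 of 18 pairs. Alternatives were quantile normalization, centring on the array median, log2 of signal plus 32, no filter, a filter of 6 arrays, no intensity trend, only the groups compared, a replicate block, groups by the tissue entry, a block for absent control RNAs, and each array left out in turn. The block for absent control RNAs marks neonatal aorta 2 and 3 alone, so with it that group rests on its array 1. Leaving out adult aorta 1, neonatal aorta 2 and neonatal valve 3 together was chosen after seeing the data. Upstream windows are from RefSeq's GRCr8.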

Additional observations from a re-analysis of the deposited data

How the results depend on the processing

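Of the calls counted among 7 probe sets, those in valve by age were 2 with each array left out in turn, and the contrast of age differences gave 0 under every alternative. In aorta by age the count was 1, and it was 2 with log2 of signal plus 32, with the replicate block and by tissue entry. With no filter it was 2 of all 11 probe sets, of which 1 was Cxcl1, a gene not among the 7. It was 0 without adult aorta 1, neonatal aorta 2 and neonatal valve 3, and 1 to 2 with each array left out. Between neonatal tissues it was 2, with 4 when only the groups compared were fitted, 1 by tissue entry, 1 without the 3 arrays, and 2 to 3 with each array left out. The control RNA block leaves neonatal aorta to its array 1, so its counts are not given for these comparisons. Between adult tissues the count was 3, with 5 after median centring and 2 to 3 with each array left out. The replicate block changed no other count of these calls by over 1.5 times. The spread among the probe sets of Cxcl12 in neonates was 4.33 with log2 of signal plus 32, 1.09 by tissue entry and 4.67 to 5.37 with each array left out. In adults it was 3.75, 0.66 and 4.01 to 5.15 under the same alternatives.

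Grouping by the tissue entry swaps adult aorta with neonatal valve, so each comparison then sets other arrays against each other. Signs turned for Ackr3 (-0.51 in aorta by age, 0.83 between neonatal tissues), Ccl11 (-2.08 and 1.47) and 1388583_at of Cxcl12 (1.03 in valve by age, -0.46 between adult tissues). For Cxcr4, in the order 1370097_a_at, 1373661_a_at and 1389244_x_at, they were 0.11, 1.74 and 1.82 in aorta by age, 0.38, 1.84 and 2.58 in valve by age, -1.52, -0.86 and -1.36 in neonatal valve against neonatal aorta, and -1.25, -0.77 and -0.59 in adult valve against adult aorta.

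The other reversals were of differences that were not called, and the cause was not tested. With each array left out, Cx3cl1 in aorta by age ranged over -0.34 to 0.014, and was 0.0098 without the 3 arrays. In valve by age 1369633_at of Cxcl12 ranged over -0.40 to 0.58, 1387655_at over -1.10 to 0.26 and Ccl11 over -1.04 to 0.40. Between adult tissues 1369633_at ranged over -0.30 to 0.70. Between neonatal tissues 1370097_a_at of Cxcr4 ranged over -0.38 to 0.53, and was -0.078 with the control RNA block and -0.57 without the 3 arrays. In the contrast of age differences 1370097_a_at ranged over -0.15 to 0.82 and 1373661_a_at over -0.43 to 0.55, and 1373661_a_at was -0.0030 with log2 of signal plus 32. Of the values of single probe sets under an alternative, 811 kept direction and side of the threshold, 28 lost a call, 17 gained one and 39 reversed.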

Other observations

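Over the 12 arrays the genes with the profile nearest to a member were sought among 10410 genes, by the mean absolute log2 difference after each profile was centred on its own mean. For Ackr3 they were C1s (0.288), Serping1 (0.293) and Slc22a18 (0.294), where C1s is a protease of the first complement component and Serping1 encodes its inhibitor. For 1369633_at of Cxcl12 they were Ccdc3 (0.404), Hspd1 (0.409) and Slc1a4 (0.412). For Ccl11 they were Dgat2 (0.610), an enzyme of triglyceride synthesis, Rxra (0.745) and Tmem79 (0.758). Likeness of profile is a description of these arrays, which share tissue and transcript coverage, and says nothing of shared control.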
